A study of Mus musculus with 6 samples.

Results

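The receptors, kinases and transcription factor through which interleukin-6 (IL-6) and its relatives reach the hepatocyte nucleus were examined in cultured mouse hepatocytes with and without the succinate receptor gene Sucnr1. The 10 genes, Il6ra, Il6st, Lifr, Osmr, Jak1, Jak2, Jak3, Tyk2, Stat3 and Socs3, were chosen by pathway membership from a table of 25184 genes, with earlier results of the genotype comparison in these libraries known. Their differences between genotypes are therefore given as a description. All 10 passed the filter on low counts, as did 15105 genes of the table, and their counts in single libraries ran from 116 for Jak3 to 13947 for Stat3.

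Primary hepatocytes were isolated from chow-fed mice by enzymatic digestion and a density gradient, kept in culture overnight, and sequenced as 1 stranded mRNA library per sample. The control group, Sucnr1 fl/fl (n = 3), carried floxed Sucnr1 alleles without Cre, and the other group, Hep-Sucnr1 KO (n = 3), carried the same alleles and 1 copy of Alb-Cre, in which the hepatocyte promoter of the albumin gene drives the recombinase. No control with Alb-Cre alone was among the libraries, and an effect of Cre cannot be told apart from that of the deletion. Each genotype had 1 library from extraction day 1 (Sucnr1 fl/fl replicate 1, Hep-Sucnr1 KO replicate 3) and 2 libraries from day 2 (replicates 2 and 3 of the control, replicates 4 and 5 of the knockout). The labels do not say that each library came from a separate mouse, so the p-values measure the spread between these libraries. The ages of the mice that gave these hepatocytes were not given in the sources used here.

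Library totals lay between 30504248 and 38770694 counts. Sucnr1 had 258, 118 and 103 counts in replicates 1 to 3 of the control, and 84, 28 and 5 counts in replicates 3, 4 and 5 of Hep-Sucnr1 KO, so that the knockout library of day 1 retained a level (2.66 CPM) near that of the lowest control (3.40 CPM). CPM are counts divided by the TMM-scaled library total, times 1000000. The hepatocyte markers summed to between 63320 and 99220 CPM, and the lymphocyte markers to between 1.87 and 12.5 CPM. Of the latter, Ptprc, which all leukocytes express, reached 8.42 CPM, and Cd3d, Cd3e and Cd3g of T cells did not exceed 0.236 CPM. Markers of Kupffer cells, the resident macrophages of the liver, summed to 81.3, 56.5 and 179.3 CPM in the control libraries, in the order of their replicate numbers, and to 37.3, 145.0 and 124.5 CPM in the knockout libraries. Values of single libraries are given in this order throughout. Of these sums, Cd68 made up 39.1, 18.6 and 40.7 CPM in the controls and 29.0, 24.3 and 39.25 CPM in the knockout. Its log2 fold change for day 2 against day 1 was −0.14, whereas 10 of the 11 markers were above 0. Between days, 0 of the 11 Kupffer cell markers passed a false discovery rate of 0.05 in edgeR. At an unadjusted p below 0.05, 7 were higher on day 2 (median of the list 2.07 on the log2 scale), beside 7.49% of all genes tested in either direction. Without Sucnr1 fl/fl replicate 2 the numbers past these thresholds were 0 and 10, with a median of 2.58. That library was set apart by its Kupffer cell sum, so this change follows from the choice and is no separate support. The summed markers of sinusoidal endothelial cells ran from 35.7 to 98.8 CPM, of stellate cells from 3.75 to 22.1 CPM, of neutrophils from 0.981 to 7.15 CPM and of cholangiocytes from 350.2 to 650.4 CPM, the last almost wholly from Spp1 and Sox9, with the bile duct keratin Krt7 at no more than 0.33 CPM. By the Kupffer cell sum the library labelled Sucnr1 fl/fl replicate 2, of day 2, lay with the libraries of day 1, and the day values of named genes are given with and without it. In such bulk libraries, fewer cells of a type and less RNA per cell cannot be told apart.

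IL-6 binds its own receptor IL6RA, and the pair engages gp130, the product of Il6st, which carries the signal into the cell. Oncostatin M and leukaemia inhibitory factor also signal through gp130, paired with OSMR or LIFR. The receptors have no kinase activity of their own and use JAK1, JAK2 and TYK2 to phosphorylate STAT3, which moves to the nucleus and switches on acute phase genes in hepatocytes. SOCS3, itself induced by STAT3, binds gp130 and the JAKs and shuts the signal off. JAK3 differs from the other JAKs in that it serves receptors built on the common gamma chain, IL2RG, and is known mainly from lymphoid cells.

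Since Socs3 is the textbook target of STAT3 in this pathway, the members' promoters were read for STAT elements. RefSeq (GRCm38.p6) gave 11 promoters for the 10 genes, each from 250 bases before to 50 bases after the annotated start, with 2 for Lifr. The letters TTCNNNGAA, which read the same on both strands, were found in 1 of the 11, that of Socs3, and in 2726 of 32851 promoters of the same length (8.30%). The longer spacing TTCNNNNGAA, also the same on both strands, was in 0 of the 11 and in 6.95% of all promoters. The sequences of Socs3 (chr11:117969317-117969616, minus strand), the member with a match, and of Jak3 (chr8:71676133-71676432, plus strand), the member with the largest difference between genotypes, are given 5′ to 3′ along the gene, with the match in capitals.
Socs3: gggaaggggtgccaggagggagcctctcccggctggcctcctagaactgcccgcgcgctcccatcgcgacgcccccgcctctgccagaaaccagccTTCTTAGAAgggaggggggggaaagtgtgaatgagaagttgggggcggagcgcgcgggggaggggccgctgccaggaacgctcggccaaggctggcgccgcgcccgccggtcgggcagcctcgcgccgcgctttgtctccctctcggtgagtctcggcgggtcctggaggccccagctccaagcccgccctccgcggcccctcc
Jak3: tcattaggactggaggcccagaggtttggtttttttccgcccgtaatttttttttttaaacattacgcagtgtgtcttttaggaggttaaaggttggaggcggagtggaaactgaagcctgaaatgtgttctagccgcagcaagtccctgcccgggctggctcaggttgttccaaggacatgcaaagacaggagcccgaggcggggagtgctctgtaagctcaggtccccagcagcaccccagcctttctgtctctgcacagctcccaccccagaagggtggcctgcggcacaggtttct
The match TTCTTAGAA in Socs3 began 154 bases before the RefSeq start. The longest GENCODE transcript of Socs3 starts 180 bases further downstream than the RefSeq entry, so bases just before that start lay partly outside this window. In Jak3 neither set of letters was present in the window, and its longest GENCODE transcript starts 1952 bases downstream of the RefSeq start, so the window does not cover that start. A match of letters is a description of the sequence and says nothing on binding.

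Compared per exon length, as TPM (counts per kilobase of exon, scaled to a sum of 1000000 in each library), the members fell into a high and a low set. Socs3 had the highest mean, 99.5 ± 25.3 TPM (SD, n = 6), followed by Jak1 at 67.4 ± 9.46 TPM, Stat3 at 52.8 ± 10.4 TPM, Lifr at 41.1 ± 7.97 TPM, Il6st at 26.3 ± 6.34 TPM and Jak2 at 20.0 ± 6.30 TPM. The low set held Tyk2 at 3.25 ± 0.397 TPM, Il6ra at 2.64 ± 0.573 TPM, Osmr at 1.97 ± 0.268 TPM and Jak3 at 1.82 ± 0.539 TPM. Among the 9 pairs of neighbours in this order, the ranges over the 6 libraries were separate only for Jak2 and Tyk2, whose mean TPM differed 6.17-fold. The neighbours within each set overlapped, and their order is uncertain to that extent. With the mean length of the annotated transcripts in place of the exon union, Jak1, Stat3 and Socs3 led in that order and Jak3 was again last.

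**Figure D1:**
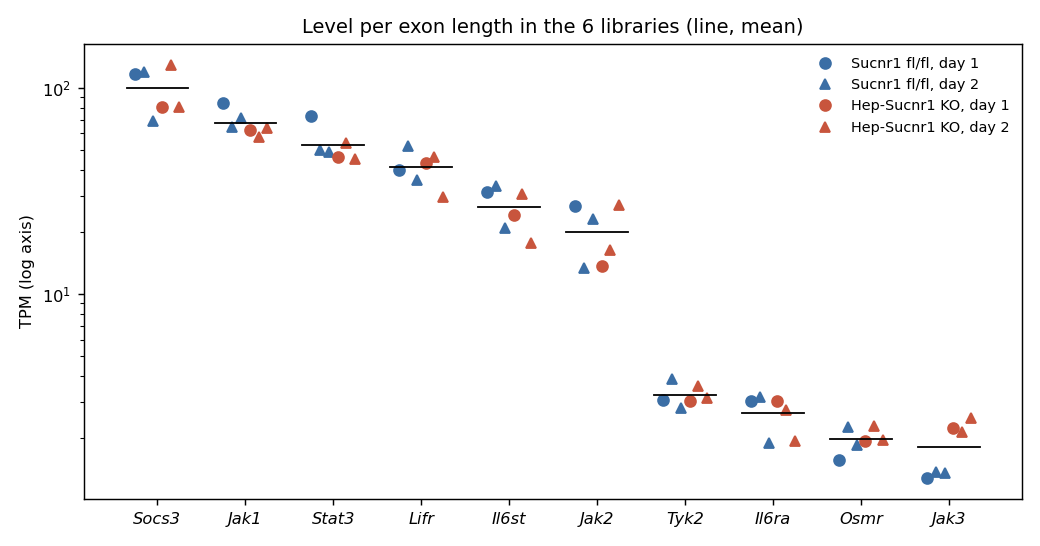
TPM of the 10 pathway genes (log axis) in the 6 libraries, ordered by their mean, which the line marks; colour shows genotype and shape shows extraction day. The 6 genes from Socs3 to Jak2 lie above the 4 from Tyk2 to Jak3, with 6.17-fold between the means of Jak2 and Tyk2.

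The shared subunit gp130 was thus far more abundant, as mRNA, than the receptor that gives a hepatocyte its response to IL-6. The ratio of Il6st to Il6ra TPM was 10.3, 10.5 and 11.03 in the Sucnr1 fl/fl libraries and 7.98, 11.2 and 9.09 in the Hep-Sucnr1 KO libraries. With the mean transcript length in place of the exon union this ratio was 21.6 to 30.2. Of the summed TPM of the 4 kinases, Jak1 made up 66.1% to 77.7% and Jak2 16.0% to 28.1% over all 6 libraries, and Tyk2 2.65% to 4.66%. Jak3 made up 1.11%, 1.63% and 1.38% in the Sucnr1 fl/fl libraries and 2.75%, 2.69% and 2.60% in the Hep-Sucnr1 KO libraries, so the ranges of the genotypes did not overlap while the share stayed the smallest of the 4 in each library. With the mean transcript length, Jak1 made up 89.2% to 93.3%, Jak2 4.25% to 8.37% and Tyk2 1.13% to 1.92%, and Jak3 0.381% to 0.536% in the controls and 0.912% to 0.957% in the knockout.

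In the genotype comparison, no member passed a false discovery rate (FDR) of 0.05. edgeR's quasi-likelihood test, with extraction day in the model and adjustment over all 15105 genes, called 0 of the 10 members and 0 genes of the table (0% of those tested). At an unadjusted p below 0.05 it held 1 member, Jak3, beside 563 genes of the table (3.73%). DESeq2 called 7 genes of the table and 0 members. The deleted gene Sucnr1 was itself not called by edgeR, at −2.23 ± 0.54 (log2 fold change, SE; unadjusted p 0.00444, edgeR FDR 0.998). DESeq2 called it, at an adjusted p of 0.0328. A member not called by edgeR is thus not shown to be unchanged. On the log2 scale 4 of the members stood above 0 (knockout higher) and 6 below, with a median of −0.03 against 0.003 over all genes tested. The CPM ranges of the genotypes were separate for 1 of the 10, again Jak3, beside 10.6% of all genes tested, and 6.54% of all genes were separate with the knockout higher, as Jak3 was. Because the members were picked with this contrast in view, no more is read from these counts.

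**Figure D2:**
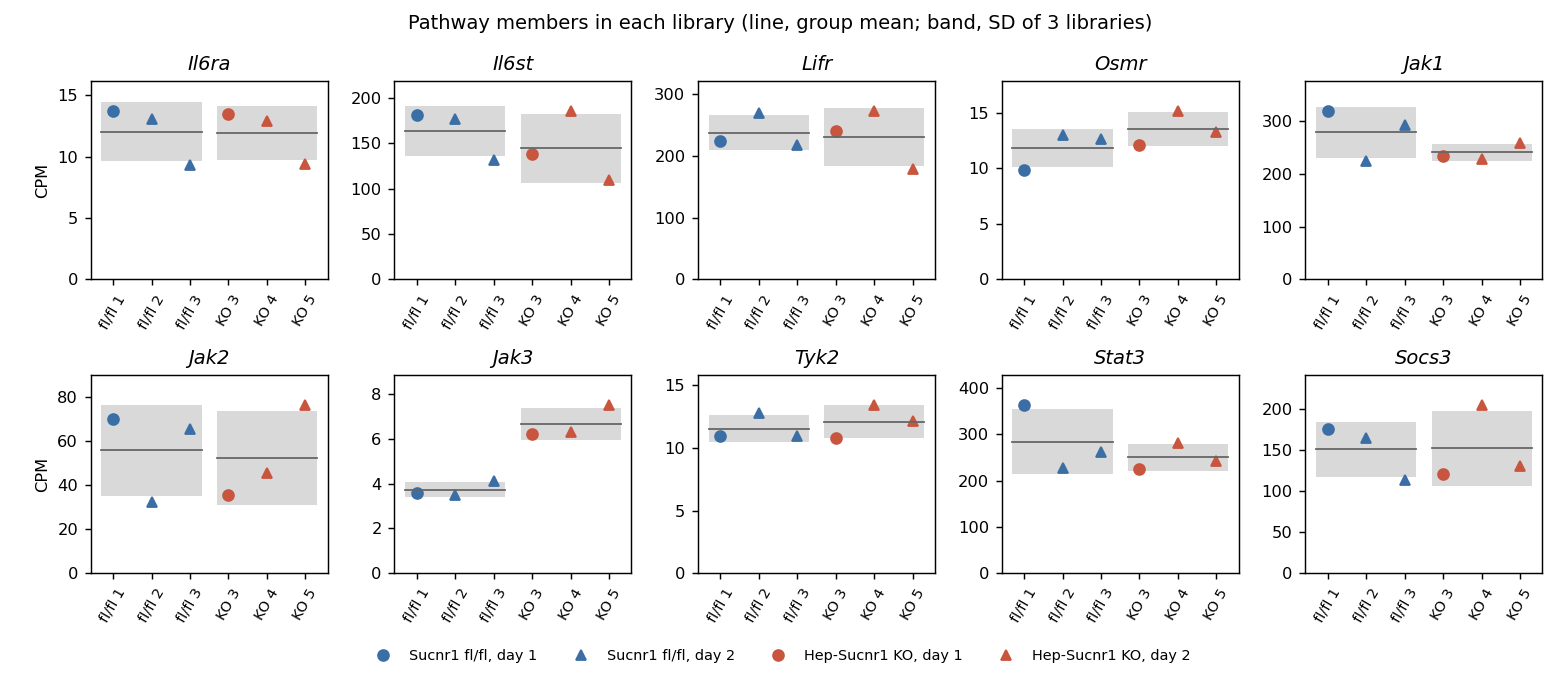
CPM of each gene in the 6 libraries (vertical axes from 0); the line is the mean and the grey band the SD of the 3 libraries of a genotype, with circles for day 1 and triangles for day 2. In the Jak3 panel the knockout libraries, at 6.20 to 7.50 CPM, all lie above the controls at 3.49 to 4.12 CPM, and in the other panels the genotypes overlap.

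Among the receptors, Il6ra, which binds IL-6, had 527, 436 and 282 counts in the controls (13.7, 13.1 and 9.30 CPM) and 426, 437 and 310 counts in the knockout (13.5, 12.9 and 9.41 CPM). Each control value had a near twin among the knockout values, and the log2 fold change was −0.01 ± 0.19 (SE). Il6st, the gp130 subunit, stood at 181.3, 177.1 and 131.7 CPM in the controls and at 138.2, 185.1 and 109.8 CPM in the knockout. Its log2 fold change was −0.17 ± 0.22 (SE), and the lowest library, Hep-Sucnr1 KO replicate 5, was 1.69-fold below the highest, Hep-Sucnr1 KO replicate 4, of the same genotype and day.

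Lifr, the partner of gp130 for leukaemia inhibitory factor, was measured at 223.8, 268.9 and 217.8 CPM in the controls and at 240.5, 271.6 and 178.4 CPM in the knockout, a log2 fold change of −0.04 ± 0.19 (SE). Osmr, the partner for oncostatin M, had 9.88, 13.1 and 12.6 CPM in the controls and 12.1, 15.2 and 13.3 CPM in the knockout. The Osmr ranges overlapped, and the log2 fold change of 0.20 ± 0.12 (SE; edgeR FDR 0.998) was above 0 in 14 of 14 alternative fits without passing the threshold in any, as the lowest adjusted p among them was 0.921. For Il6ra, Il6st and Lifr, Sucnr1 fl/fl replicate 3 and Hep-Sucnr1 KO replicate 5 were the lowest libraries of their genotypes, so that the spread within a genotype was larger than the difference between genotypes.

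Among the kinases, Jak1, which is required for gp130 signalling, had 317.7, 224.0 and 292.6 CPM in the controls and 233.5, 228.2 and 257.8 CPM in the knockout. All 3 knockout values lay inside the control range, and the log2 fold change was −0.21 ± 0.16 (SE). Jak2, which also serves the growth hormone receptor, varied most of the 10, by a coefficient of variation of 34.8%, with 69.9, 32.1 and 65.5 CPM in the controls and 35.6, 45.3 and 76.2 CPM in the knockout. Its high and low libraries were found in both genotypes, and its log2 fold change was −0.11 ± 0.38 (SE). Tyk2, which serves the interferon receptors as well, varied least, by 9.44%, with 10.9, 12.8 and 10.9 CPM in the controls and 10.8, 13.4 and 12.1 CPM in the knockout, a log2 fold change of 0.07 ± 0.13 (SE).

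Jak3 (ENSMUSG00000031805, chromosome 8, 71676296 to 71690575, plus strand, GRCm38) had 137, 116 and 125 counts in the controls and 196, 213 and 247 counts in the knockout. Scaled to the library these were 3.56, 3.49 and 4.12 CPM against 6.20, 6.29 and 7.50 CPM, and the lowest knockout library was above the highest control. The log2 fold change was 0.84 ± 0.17 (SE), with an unadjusted p of 0.0018 in edgeR's quasi-likelihood test, the 9th smallest of the 15105, and an FDR of 0.998. DESeq2 gave an adjusted p of 0.105. The log2 ratio of the CPM was 0.80 on day 1, from 1 library of each genotype, and 0.86 on day 2, from 2 of each. Leaving out each library in turn gave log2 fold changes between 0.76 and 0.90. The 2 control libraries indexed 39 and 40 formed a separate index series from the 4 libraries 85 to 88. With that series as a further term the log2 fold change of Jak3 was 0.72 ± 0.28 (SE). Only 1 control, Sucnr1 fl/fl replicate 3, shared the series of the knockout libraries, and the genotype estimate of that fit rests on it.

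Other genes and cells were set beside Jak3. Its exons share 404 of 5352 bases (7.55%) with Insl3 on the same strand, and Insl3 had 2 counts in all 6 libraries together. Of the receptors that signal through JAK3, the common gamma chain Il2rg had 0.598, 0.541 and 2.31 CPM in the controls and 0.317, 2.10 and 1.94 CPM in the knockout, a pattern that followed the Kupffer sums. The lymphocyte markers summed to 3.49, 2.71 and 12.4 CPM in the controls and to 1.87, 12.5 and 8.99 CPM in the knockout. Of the 12.5 CPM, 8.42 were Ptprc, which all leukocytes express. Hep-Sucnr1 KO replicate 3, a single library, had the lowest sum of both marker lists among the 6 libraries and 6.20 CPM of Jak3. Which cells the Jak3 counts came from was not tested. Of the 5 tested genes of that receptor list, 0 passed an FDR of 0.05 between genotypes and 4 were higher in the knockout, with a median log2 fold change of 0.48. These 4 had low counts and wide errors: 0.14 ± 0.57 for Il2rg, 0.64 ± 0.52 for Il2rb, 0.74 ± 0.66 for Il21r and 0.48 ± 0.67 (SE) for Il2ra, at 2 to 18 counts a library. Il15ra, the most abundant of the 5, stood at −0.08.

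**Figure D3:**
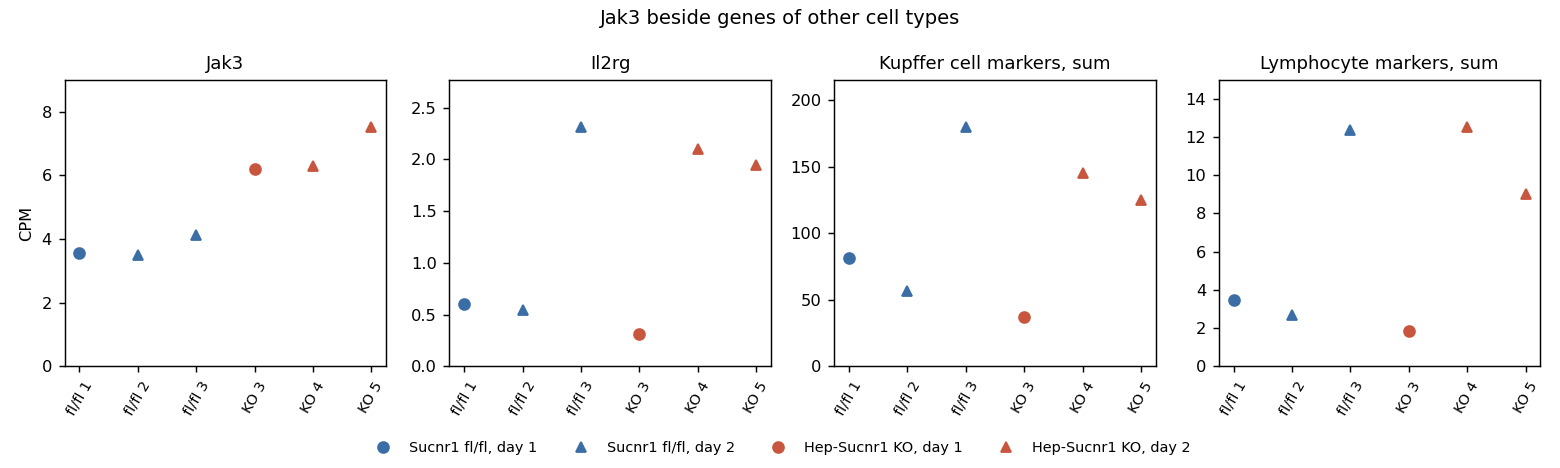
CPM of Jak3, of Il2rg and of the summed Kupffer cell and lymphocyte markers in the 6 libraries (each vertical axis from 0; colour, genotype; shape, extraction day). The knockout library of day 1 has 6.20 CPM of Jak3, the lowest Il2rg and the lowest sums of both marker lists.

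Stat3 (ENSMUSG00000004040, chromosome 11, 100885098 to 100939540, minus strand), the transcription factor of the pathway, had 13947, 7529 and 7952 counts in the controls and 7131, 9539 and 7967 in the knockout. These were 362.8, 226.5 and 262.2 CPM against 225.7, 281.7 and 241.9 CPM. Sucnr1 fl/fl replicate 1 was the highest, and the other 5 libraries of both genotypes lay between 225.7 and 281.7 CPM, so that the log2 fold change of −0.16 ± 0.19 (SE) turned to 0.10 without that library. Socs3 (ENSMUSG00000053113, chromosome 11, 117966079 to 117970047, minus strand), the feedback inhibitor whose promoter is shown above, had 6773, 5475 and 3437 counts in the controls and 3819, 6947 and 4317 in the knockout. At 176.2, 164.7 and 113.3 CPM against 120.9, 205.2 and 131.1 CPM the genotypes overlapped, and the log2 fold change was 0.003 ± 0.26 (SE).

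The TPM of Socs3 was 1.60, 2.40 and 1.42 times that of Stat3 in the controls and 1.77, 2.40 and 1.79 times in the knockout, and the ratio was highest in Sucnr1 fl/fl replicate 2 and Hep-Sucnr1 KO replicate 4. Its size depends on the length used, since with the mean transcript length it was 0.665 to 1.12 and above 1 only in those libraries. Stat3 peaked in Sucnr1 fl/fl replicate 1 and Socs3 in Hep-Sucnr1 KO replicate 4. In log2 CPM, both genes were above their means over the 6 libraries in these libraries, Stat3 by 0.46 and 0.10 and Socs3 by 0.25 and 0.47. They lay on opposite sides of their means only in Sucnr1 fl/fl replicate 2, at −0.22 for Stat3 and 0.15 for Socs3. Stat3 shares 72 of 9527 exon bases with Stat5a on the opposite strand, and the counting used strand.

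**Figure D4:**
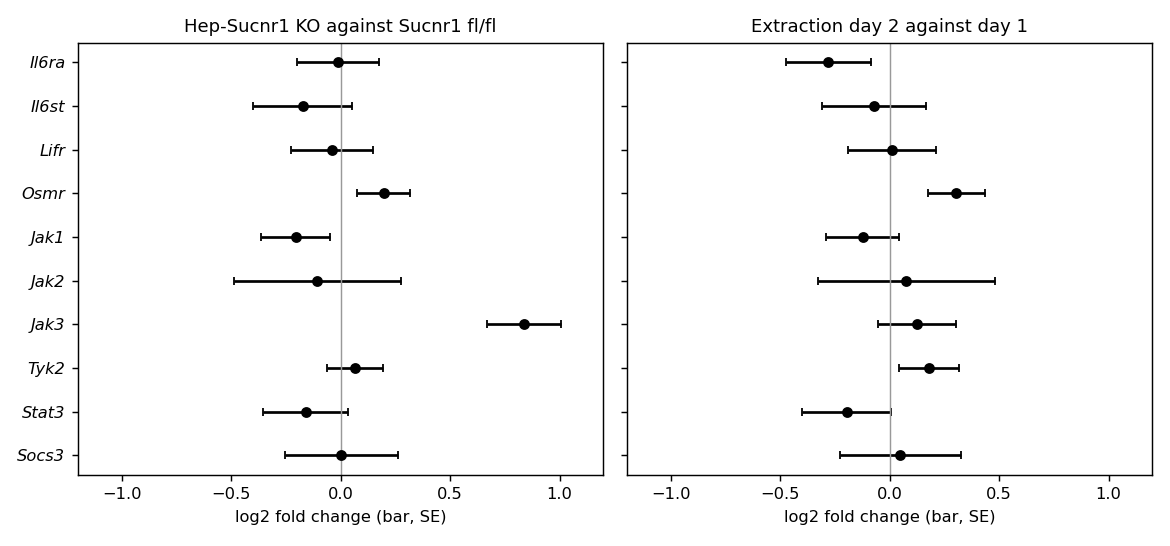
Log2 fold changes of the 10 genes (point) with their SE (bar) from the edgeR fit, Hep-Sucnr1 KO against Sucnr1 fl/fl on the left and extraction day 2 against day 1 on the right. Jak3, at 0.84 for genotype and 0.12 for day, is the only point beyond 0.5 in either panel, and no member passed an FDR of 0.05.

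Extraction day, which did not enter the choice of the members, was tested in the same fit over both genotypes. edgeR called 0 members and 0 genes of the table at an FDR of 0.05 (0% of those tested), and at an unadjusted p below 0.05 it held 0 members beside 1132 genes (7.49%). DESeq2 called 225 genes of the table and 0 members. The ranges of the days were separate for 2 members, Il6ra and Osmr, beside 14.8% of all genes tested. Osmr stood at 9.88 and 12.1 CPM on day 1 and at 12.6 to 15.2 CPM on day 2, a log2 fold change of 0.30 ± 0.13 (SE; edgeR FDR 0.674), and 0.24 (FDR 0.711) without Sucnr1 fl/fl replicate 2. Il6ra stood at 13.5 and 13.7 CPM on day 1 and at 9.30 to 13.1 CPM on day 2, a log2 fold change of −0.28 ± 0.19 (SE; edgeR FDR 0.875), and −0.44 (FDR 0.525) without that library. The median log2 fold change of the 10 members was 0.03, beside 0.02 over all genes tested.

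Whether a genotype difference itself differed between the days was tested with an interaction term, which left 2 residual degrees of freedom. It called 0 members and 0 genes at an FDR of 0.05 in edgeR (0%). Stat3 was the 1 member with an unadjusted p below 0.05 in edgeR, beside 3.69% of all genes tested, with log2 ratios of knockout to control CPM of −0.68 on day 1 and 0.10 on day 2 and an interaction of 0.78 ± 0.31 (SE; unadjusted p 0.0449, edgeR FDR 0.9997). Jak2 had the largest interaction, 1.29 ± 0.68 (SE), and Socs3 one of 0.82 ± 0.49 (SE), and both were within 2 SE of 0. In DESeq2, Stat3 (0.0279) and Jak2 (0.0345) had an unadjusted p below 0.05, with adjusted p of 1.0. In each case the day 1 value compares 1 library with 1 library, and Sucnr1 fl/fl replicate 1 held the highest Stat3 of the 6.

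By library, the members moved in different ways. Il6ra, Il6st and Lifr were below their own means in Sucnr1 fl/fl replicate 3 and Hep-Sucnr1 KO replicate 5, with deviations of log2 CPM of −0.35 and −0.33 for Il6ra, of −0.20 and −0.46 for Il6st and of −0.09 and −0.37 for Lifr. Jak2 was above its mean in the same libraries, by 0.35 and 0.57, and lowest in Sucnr1 fl/fl replicate 2, at −0.67. Both libraries were of day 2 and each belonged to another genotype. Over the 6 libraries, the pair of members with the smallest mean absolute difference of these deviations was Osmr and Tyk2 (0.10), followed by Il6st and Lifr (0.13).

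**Figure D5:**
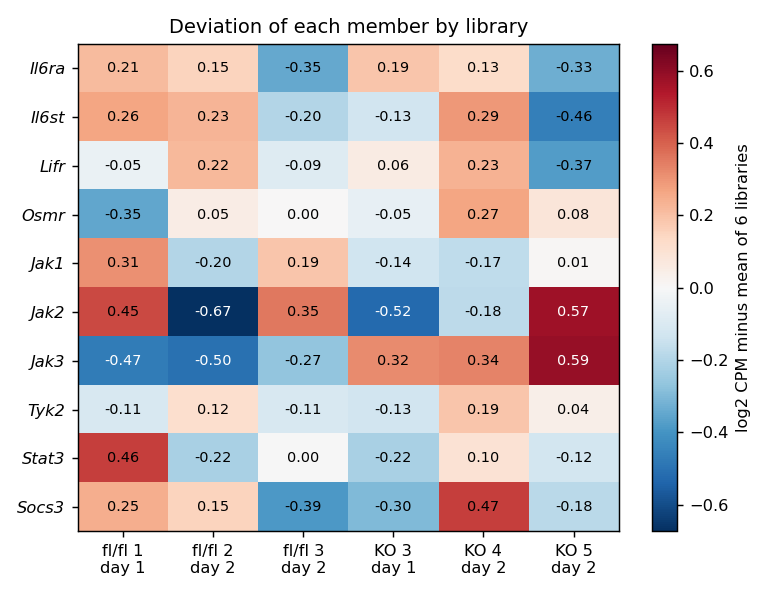
Log2 CPM of each gene in each library minus its mean over the 6 libraries (colour and printed value). Jak3 changes sign between the genotypes, while the receptors Il6ra, Il6st and Lifr are below their means and Jak2 above its mean in Sucnr1 fl/fl replicate 3 and Hep-Sucnr1 KO replicate 5.

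The genes whose deviations were most like those of Socs3, among 3440 genes with a comparable level and spread, were H6pd, Nrp2, Mylk, Slc25a42 and Id2, with mean absolute differences of 0.09 to 0.10 on the log2 scale. Id2 encodes an inhibitor of basic helix-loop-helix factors and Nrp2 a neuropilin. For Stat3, among 4849 genes, they were Dapk1, Zfp36, Spred2, Nedd4l and Bcor, with differences of 0.06 to 0.07, of which Zfp36 encodes an RNA-binding protein that destabilises cytokine mRNAs. With 6 libraries such likeness is a description of these samples alone.

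Ligand genes of the family were measured as mRNA alone, and none exceeded 8.99 CPM. Cytokine protein in the cultures was not measured. Per exon length, Lif had a mean of 3.08 TPM and Clcf1 of 2.37 TPM, within the range of the low set of members. Of 12 gp130 cytokine genes, 10 were in the table and 7 passed the filter, and 0 of these 7 passed an FDR of 0.05 in edgeR in either comparison. Lif, at 5.64 to 8.99 CPM, and Clcf1, at 3.51 to 6.47 CPM, were the most abundant, and Osm, the ligand of OSMR, did not exceed 0.198 CPM. Il6 had 0.338, 0.301 and 1.52 CPM in the controls and 0.095, 1.98 and 1.15 CPM in the knockout. It was high in the same 3 libraries of day 2 as the Kupffer cell sums, as were Ebi3 and Il27, which form a cytokine of the same family, and the part of those cells in this was not tested. The day log2 fold changes were 2.39 for Il6, 3.30 for Ebi3 and 2.55 for Il27, at unadjusted p of 0.0299, 0.00355 and 0.00772 (edgeR), and 2.87, 3.66 and 2.73 without Sucnr1 fl/fl replicate 2. The day value of Il6 fell to 1.36 when Hep-Sucnr1 KO replicate 3 was left out and rose to 3.99 when replicate 1 of the control was left out, fits with 1 library on day 1. Ebi3 ranged from 2.76 to 3.99 and Il27 from 2.01 to 2.98 over the libraries left out. DESeq2 gave Ebi3 an adjusted p of 0.0126. Hep-Sucnr1 KO replicate 4, with the most Il6, also had the most Socs3, whereas in Sucnr1 fl/fl replicate 3 and Hep-Sucnr1 KO replicate 5, with more Il6 than any library of day 1, Il6ra and Socs3 were both below their means.

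Of the other receptors that pair with gp130, Il11ra1, at 12.5 to 16.1 CPM, and Il11ra2, at 1.53 to 2.10 CPM, were measured above the filter, while Cntfr and Il27ra were below it. Their log2 fold changes between genotypes were 0.06 and 0.09. The genes of receptor shedding, Adam10 and Adam17, whose proteases cut IL6RA from the cell surface, and their regulators Rhbdf1 and Rhbdf2, had genotype log2 fold changes between −0.11 and 0.08, and 0 of 4 passed either threshold in either comparison.

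Of the other STAT genes, Stat2, which carries interferon signals, had 68.2, 82.0 and 106.8 CPM in the controls and 44.5, 90.6 and 110.6 CPM in the knockout, and its day log2 fold change was 0.81 (edgeR unadjusted p 0.00694; DESeq2 adjusted p 0.0536). Stat4 gave 1.95 in the same direction, whereas Stat5b, which carries growth hormone signals, gave −0.48. Without Sucnr1 fl/fl replicate 2 these were 0.91, 2.26 and −0.45, without Sucnr1 fl/fl replicate 1 they were 1.176, 3.47 and −0.20, and without Hep-Sucnr1 KO replicate 3 they were 0.43, 0.92 and −0.77. None of Stat2, Stat4, Stat5a, Stat5b and Stat6 passed an FDR of 0.05 in edgeR for genotype or day, and Stat3, at −0.20 for day and −0.12 without Sucnr1 fl/fl replicate 2, did not share the direction of Stat2.

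Of the 14 genes for inhibitors of JAK-STAT signalling, 0 passed an FDR of 0.05, and 3 were lower in the knockout at an unadjusted p below 0.05, Socs4, Socs5 and Pias2, with log2 fold changes of −0.24, −0.55 and −0.26, beside 3.73% of all genes at that p in either direction. Socs5 stood at 33.4 CPM in Hep-Sucnr1 KO replicate 3, close to the controls at 33.6 to 34.3 CPM, and at 19.9 and 18.8 CPM in the other 2 knockout libraries. Socs1, an inhibitor that like SOCS3 acts on the JAKs, stood above 0 for day 2 against day 1 (log2 fold change 0.76, edgeR unadjusted p 0.0101, and 0.67 without Sucnr1 fl/fl replicate 2, from 0.50 to 0.99 over the libraries left out), and its genotype difference was 0.26. Of the 12 genes of the SHP2 and MAPK branch, which gp130 also engages, 0 passed an FDR of 0.05, and Sos2 alone had an unadjusted p below 0.05 (log2 fold change −0.28).

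The genes downstream were measured with the same result at the FDR threshold and an uneven one below it. Of 14 early target genes of STAT3, 5 were higher and 9 lower in the knockout, with a median log2 fold change of −0.05, and 1, Timp1, a protease inhibitor, had an unadjusted p below 0.05 (1.37, from 0.494 to 3.40 CPM over the libraries). Of 23 acute phase genes that IL-6 drives, all 23 were higher in the knockout, 12 of them at an unadjusted p below 0.05 and 0 past an FDR of 0.05 in edgeR, with a median of 0.42. Over all genes tested, 7624 were higher and 7481 lower, and 3.73% had such a p in either direction. A2m was the gene with the largest difference, 0.83 at under 1 CPM, and Steap4 the gene with the smallest, 0.09. Lbp, the lipopolysaccharide binding protein, passed in DESeq2 (adjusted p 0.0183), with a log2 fold change of 0.67. The list was set up with these differences known and is not independent evidence of its direction. Beside them, the members ran from −0.21 for Jak1 to 0.84 for Jak3, with Osmr at 0.20, Tyk2 at 0.07, Socs3 at 0.003, Il6ra at −0.01, Lifr at −0.04, Jak2 at −0.11, Stat3 at −0.16 and Il6st at −0.17.

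The other hepatocyte receptors that use JAKs gave a last comparison for the members. Of 11, 0 passed an FDR of 0.05 in edgeR. At an unadjusted p below 0.05, 2 were lower in the knockout, beside 3.73% of all genes at that p in either direction. Lepr, the leptin receptor, which like gp130 signals through JAK2 and STAT3, had 10.2, 8.54 and 8.08 CPM in the controls and 3.26, 5.38 and 4.61 CPM in the knockout. The ranges were separate, as for 10.6% of all genes tested, with a log2 fold change of −1.03 (DESeq2 adjusted p 0.0754). Ifnar1, the interferon receptor subunit served by TYK2, had 30.9, 26.6 and 14.2 CPM in the controls and 11.7, 10.7 and 12.6 CPM in the knockout. Its log2 fold change was −1.01 (DESeq2 adjusted p 0.177). The 2 highest values were those of the controls indexed 39 and 40. The control that shared the index series of the knockout libraries stood at 14.2 CPM. The part of the index series in this was not tested. Tyk2 itself was at 0.07, and the growth hormone receptor Ghr, which uses JAK2, at −0.06.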

How the data were processed

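Per the labels and the study's methods, the authors trimmed the reads (Trim Galore 0.6.7), aligned them to GRCm38 (STAR 2.7.10a), counted them per Ensembl gene by strand (featureCounts) and deposited raw counts. How reads that match several genes were counted was not given in the sources used here. The columns of the table were matched to the libraries by their names, and 0 were left unmatched. Of the gene IDs, 25096 had a symbol and 88 had none.

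Genes with a mean DESeq2-normalized count above 5 were fitted with edgeR 4.0.16 (R 4.3.3; TMM, quasi-likelihood test, extraction day and genotype as terms), with Benjamini-Hochberg adjustment over all 15105 genes and a threshold of 0.05. The common biological coefficient of variation was 0.206. SE is the log2 fold change divided by the root of F. DESeq2 1.42.0, other scalings, filters and covariates, a fit of day 2 by itself and fits without 1 library were alternatives, and an index term was added after seeing the data. TPM used the exon union of GENCODE M21 (GRCm38). Deviations and likeness used log2 CPM with a prior count of 2, and genes named for likeness had a mean of at least 10 CPM. The members, the gene lists and the rule for named genes (all members, all partners of the pathway, and the extremes of other lists) were chosen with earlier results of these data known. Lbp, Ifnar1, Ghr, Sos2, Spp1, Sox9, Krt7, Ptprc and the Cd3 genes were named outside this rule, after their values were seen. The fits were also run on simulated counts with planted changes, and the outcome of that run is not given here.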

Additional observations from a re-analysis of the deposited data

How the results depend on the processing

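Over 14 genotype and 12 day alternatives, 260 fold changes of the members were computed. Of these, 251 moved by less than the SD between libraries and 9 moved by more. No member was called in any fit, so a reversal of a called value could not occur. Jak3, Osmr and Jak1 kept their genotype direction in 14 of 14 alternatives, Il6st and Tyk2 in 13, Il6ra, Lifr and Stat3 in 11, Jak2 in 10 and Socs3 in 7. For day, Lifr kept its direction in 5 of 12. The count of members past an FDR of 0.05 was 0 under each alternative for genotype, day and interaction. For the whole table, DESeq2 called 7 genes for genotype, 225 for day and 4 for the interaction, where edgeR called 0. Without the filter on low counts edgeR called 122 genes for day, and with each library left out in turn between 0 and 29, the 29 without Sucnr1 fl/fl replicate 2. The causes were not tested. With the index series as a further term, the log2 fold changes for genotype were 0.29 for Il6ra, 0.15 for Il6st and 0.49 for Socs3. In that fit the genotype estimate rests on 1 control library, Sucnr1 fl/fl replicate 3. Jak2 for genotype ranged from −0.48 without Sucnr1 fl/fl replicate 2 to 0.32 without replicate 1. The labels give no pairing of single libraries across genotypes beyond extraction day, which was a term of the fit. With 3 libraries a group and an SE of about 0.2, changes as small as those of most members could not be resolved, and Jak3, at 116 to 247 counts, also carries counting error.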
